A study of Rattus norvegicus with 20 samples.

Results

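The oxidative phosphorylation genes of the rat oesophagus were followed across a model of reflux oesophagitis and its treatment. Members were chosen by name: the nuclear genes whose array name begins with Ndufa, Ndufb, Ndufc, Ndufs, Ndufv, Uqcr, Cox4 to Cox8 or Atp5, and the Sdh genes of complex II, without pseudogene names. The names matched 88 genes, and 86 of them, of 13627 genes tested in all, had a probe with 50% or more of its spots clearly above background on 4 or more arrays. By role, 36 are subunits of complex I, 4 of complex II, 7 of complex III, 14 of complex IV and 15 of complex V. The other 10 share the naming but are no subunits: the assembly factors Ndufaf1, Ndufaf3 and Ndufaf4, the supercomplex factor Cox7a2l, the look-alike genes Ndufa10l1, Ndufb4l1 and Atp5hl1, and Cox4nb, Atp5s and Atp5sl, which now carry the symbols Emc8, Dmac2l and Dmac2.

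Oxidative phosphorylation is the mitochondrial process that couples electron flow from nutrients to the synthesis of ATP. Complexes I and II feed electrons into ubiquinone, complex III hands them to cytochrome c, complex IV passes them to oxygen, and the proton gradient built on the way drives ATP synthase, complex V. Most subunits are encoded in the nucleus and a small set in mitochondrial DNA, and in the rodent oesophagus the outer muscle is striated, a tissue rich in mitochondria.

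The tissue came from Wistar rats in 5 groups with 4 arrays each, 1 animal per array by the series' description. Sham rats had a mock operation and no drug. The other 4 groups all had surgically induced reflux oesophagitis: one was left untreated, 2 received STW5, a liquid combination of herbal extracts, at 0.5 ml/kg (low dose) or 2 ml/kg (high dose), and one received the proton pump inhibitor omeprazole at 30 mg/kg. Drugs were given for 7 days before the operation and 10 days after it, so they were present before the injury. Age and sex are not given in the labels, and there was no drug-treated sham group. Total RNA of the excised oesophagus was measured, so all layers and cell types are mixed, and fewer cells of a type and less RNA per cell cannot be told apart. Levels are log2 signals relative to the 75th percentile of the same array, and a negative level is a signal below that percentile.

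Per array 61.5% to 70.5% of the features were well above background and none was saturated. The rule on background was met by 23 of 25 squamous epithelium and 24 of 26 skeletal muscle markers. It was met by 6 of 10 gastric epithelium markers. Summed levels in sham samples were 9.90 to 10.90 for squamous, 10.63 to 11.50 for skeletal muscle and -2.24 to 5.39 for gastric markers. In the other groups the gastric sum was at most 1.67, in an untreated sample. Whether the sham sample with the highest gastric sum held gastric tissue was not tested. Between low-dose arrays 1 and 2 the spread of single-spot differences was 1.13 times that between spots of the same array, against at least 2.63 for the other pairs within a group, and these arrays were counted as 1 sample. The comparisons therefore rest on 4 samples a group, and 3 for the low dose. Sham array 2 stood apart from its group, with a ratio of 2.08 to an omeprazole array that was lower than to any sham array, and the counts by complex for the operation are given with and without it. Sham arrays filled slide 1, untreated and low-dose arrays slide 2, and high-dose and omeprazole arrays slide 3. Outside the comparisons of low dose with untreated and of high dose with omeprazole, slide and group cannot be told apart. The deposited tables do not settle which STW5 dose is which: 8 STW5 columns of the value table hold the signals of the other dose, and the group numbers of the series' description and the sample titles run opposite ways. Dose names here follow the labels of the scanner files.

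**Figure D1:**
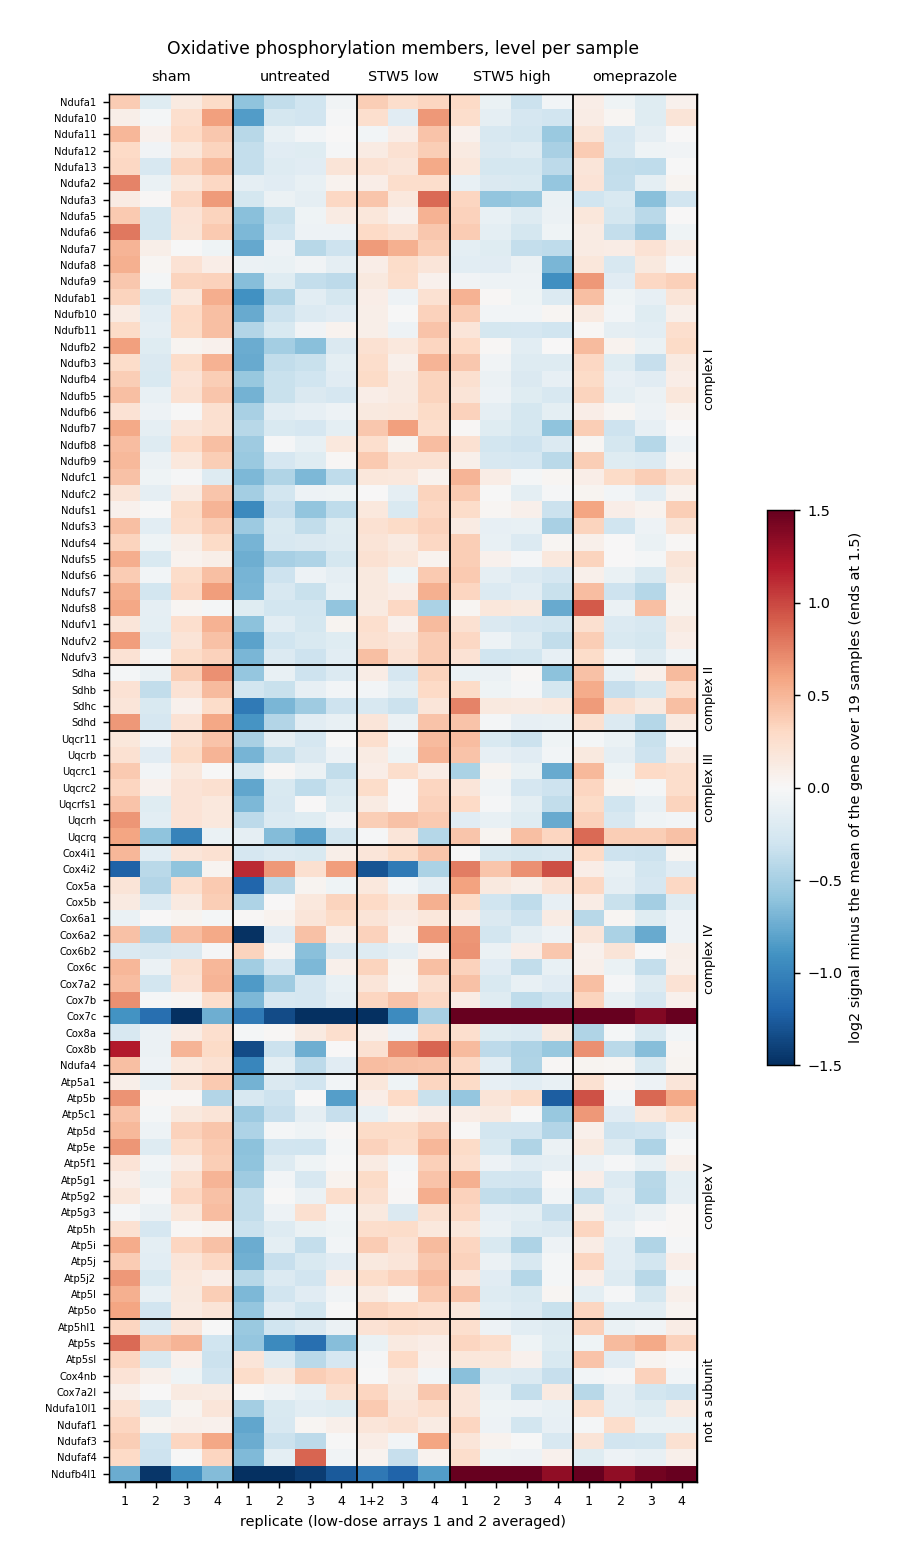
Heat map of the level of members (rows, ordered by complex) in the 19 samples (columns, by group), as log2 signal minus the gene's mean over samples. Most rows are lower in the untreated samples than in the sham and low-dose samples, and Cox7c and Ndufb4l1 are high in the samples of slide 3.

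The first comparison asks what the reflux operation did to these genes. The median change from sham to untreated rats was negative in each of the 5 complexes, while 4 of the 14 changes in complex IV were positive. Of the 86 members, 41 were lower and 1, Cox4i2, was higher at an adjusted p under 0.05 (limma, Benjamini-Hochberg over all genes tested). Over all genes 32.9% were called in this comparison, 17.9% lower and 14.9% higher. The members' median change was -0.47 on the log2 scale against -0.09 over all genes, and 81 of the 86 changes were negative. In 25 members every untreated sample lay below every sham sample, and over all genes 12.7% did so. Cox4i2 was the 1 member apart in the other direction, against 11.7% of all genes. Leaving out single arrays moved the number called to between 9, without untreated array 1, when 25.9% of all genes were called, and 61, without sham array 2, when 34.3% were. With only sham and untreated samples in the fit it was 5, against 16.6% of all genes. In this fit, without untreated array 1 and with quantile normalization, the share of members called was thus below that of all genes. Leaving out any sham array but array 2 also lowered the count, as given below. The excess of called members therefore depends on these choices.

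By complex, members were called as follows. Complex I had 22 of 36 members lower. All 36 changes were negative, from -0.78 to -0.31, with a median of -0.52. The counts were 2 of 4 with a median of -0.61 in complex II, 2 of 7 with -0.42 in complex III, 5 of 14 with -0.42 in complex IV, 7 of 15 with -0.42 in complex V and 3 of 10 with -0.35 among the non-subunits. Without sham array 2 the members lower were 32 in complex I, 3 in complex II, 3 in complex III, 7 in complex IV, 10 in complex V and 5 among the non-subunits. All 42 members called with that array were also called without it. The median centred level of all members was -0.14 on sham array 2 and 0.19 to 0.37 on the other sham arrays. Leaving it out thus raised the sham mean. Leaving out any other single sham array lowered the total called, and counts by complex were not made for those settings. Cell type markers moved in the same comparison. Of the macrophage markers 16 of 16 were higher in untreated rats, and their summed level ranged from 4.57 to 6.76 in sham and from 7.84 to 8.78 in untreated samples. Of the skeletal muscle markers 13 of 24 were lower and 2 higher, with a summed level of 10.63 to 11.50 in sham and 9.53 to 10.86 in untreated samples. Squamous markers were lower in 15 of 23, smooth muscle markers in 5 of 10, and neutrophil markers higher in 10 of 12. The part of these cell types in the members' changes was not tested.

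**Figure D2:**
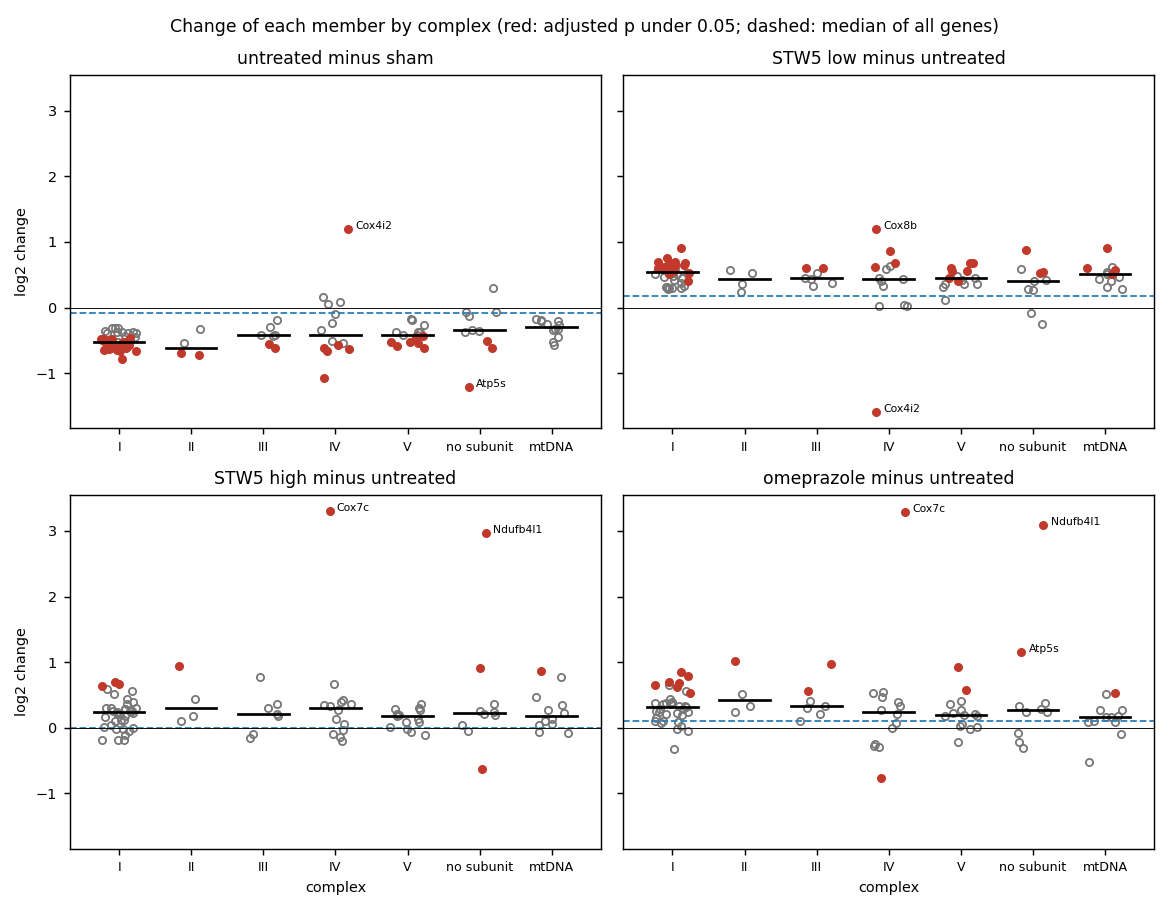
Log2 change of each member (points) in 4 comparisons, by complex and for the subunits encoded in mitochondrial DNA, with red for an adjusted p under 0.05, a black line at each median and a dashed line at the median of all genes. All 36 complex I changes are negative for untreated against sham and positive for low dose against untreated.

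In complex I the change with the smallest p belonged to Ndufs1, the largest subunit, which carries iron-sulphur clusters in the peripheral arm. Its level was 2.48, 2.41, 2.70 and 2.93 in sham and 1.46, 2.07, 1.82 and 2.03 in untreated samples, so the groups did not overlap. In the treated groups it was 2.58, 2.19 and 2.72 at the low dose, 2.69, 2.44, 2.49 and 2.09 at the high dose and 3.00, 2.52, 2.47 and 2.78 with omeprazole, all above every untreated sample. The change from sham to untreated was -0.78 ± 0.19 (SE, adjusted p = 0.00498), and from untreated it was 0.65 ± 0.20 (SE, adjusted p = 0.0187) at the low dose, 0.58 ± 0.19 (SE, adjusted p = 0.0577) at the high dose and 0.85 ± 0.19 (SE, adjusted p = 0.00389) with omeprazole. The low-dose call was lost without untreated array 1 or low-dose array 4 (adjusted p = 0.0601 to 0.0748). The high-dose change missed the threshold although its samples did not overlap those of untreated rats.

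Ndufc1, an accessory subunit of the membrane arm, was called in all 4 of these comparisons. It read 2.31, 1.797, 1.85 and 1.67 in sham and 1.19, 1.41, 1.20 and 1.48 in untreated samples. Treated samples read 2.03, 2.03 and 1.92 at the low dose, 2.37, 1.97, 1.84 and 1.90 at the high dose and 1.96, 2.15, 2.24 and 2.10 with omeprazole. Untreated samples were again the lowest of all, and the 3 treated groups overlapped the sham samples. Its change was -0.59 ± 0.15 (SE, adjusted p = 0.00817) after the operation, then 0.67 ± 0.16 (SE, adjusted p = 0.00457), 0.70 ± 0.15 (SE, adjusted p = 0.0107) and 0.79 ± 0.15 (SE, adjusted p = 0.00157) for low dose, high dose and omeprazole against untreated. Ndufs5, another accessory subunit, was also called in all 4, with -0.61 ± 0.16 (SE, adjusted p = 0.00918) after the operation and 0.64 ± 0.17 (SE, adjusted p = 0.00905), 0.64 ± 0.16 (SE, adjusted p = 0.0221) and 0.62 ± 0.16 (SE, adjusted p = 0.00996) under the 3 treatments. Its high-dose call was lost without untreated array 1 or high-dose array 1 (adjusted p = 0.0641 to 0.0875). These values are from the brighter of 2 Ndufs5 probes. High-dose and omeprazole samples together differed from all other samples by 0.23 on that probe and by -0.06 on the dimmer probe.

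Ndufa7, an accessory subunit of the peripheral arm, differed between the STW5 doses. Its level was -1.55, -1.98, -2.07 and -2.13 in sham, -2.83, -2.14, -2.48 and -2.37 in untreated and -1.42, -1.52 and -1.69 in low-dose samples. At the high dose it was -2.21, -2.24, -2.43 and -2.45, which overlaps the untreated range, and with omeprazole -1.94, -1.95, -1.84 and -1.96. It changed by -0.52 ± 0.15 (SE, adjusted p = 0.0168) after the operation and by 0.91 ± 0.17 (SE, adjusted p = 0.000749) at the low dose. The call for the operation was lost without sham array 1 or untreated array 1 (adjusted p = 0.0615 to 0.0617). High dose minus low dose was -0.78 ± 0.17 (SE, adjusted p = 0.00561), with no overlap of samples.

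With all sham arrays in the fit, the other complex I members called lower after the operation were Ndufa1, Ndufa10, Ndufa11, Ndufa9, Ndufab1, Ndufb10, Ndufb2, Ndufb3, Ndufb4, Ndufb5, Ndufb7, Ndufb9, Ndufs3, Ndufs4, Ndufs6, Ndufs7, Ndufv2 and Ndufv3, with changes between -0.46 and -0.66. The call for Ndufb7 was lost without sham arrays 1, 3 or 4 or any untreated array (adjusted p = 0.0583 to 0.159). That for Ndufa9 was lost without sham arrays 1 or 3 or untreated array 1 (adjusted p = 0.0545 to 0.0665). For the others in this list the effect of leaving out single arrays is not given here. Ndufs3, Ndufs7 and Ndufv2 are core subunits of the peripheral arm, and Ndufab1 is the mitochondrial acyl carrier protein. At the low dose the complex I members that rose beside Ndufs1, Ndufc1, Ndufs5 and Ndufa7 were Ndufa1, Ndufa10, Ndufb10, Ndufb2, Ndufb3, Ndufb4, Ndufb5, Ndufb6, Ndufb7, Ndufb9, Ndufs3, Ndufs4, Ndufv2 and Ndufv3, by 0.41 and 0.76. Both comparisons use the same untreated samples.

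Complex II, succinate dehydrogenase, has 4 subunits and all were measured. Sdhc, a membrane anchor that binds ubiquinone, read 2.11, 1.70, 1.99 and 2.20 in sham and 0.86, 1.24, 1.40 and 1.61 in untreated samples. It read 1.68, 1.61 and 2.10 at the low dose, 2.67, 2.08, 2.06 and 2.09 at the high dose and 2.57, 2.16, 2.07 and 2.37 with omeprazole. The change was -0.72 ± 0.19 (SE, adjusted p = 0.00967) after the operation. Against untreated it was 0.95 ± 0.19 (SE, adjusted p = 0.00746) at the high dose and 1.02 ± 0.19 (SE, adjusted p = 0.00151) with omeprazole, and 0.52 ± 0.21 (SE, adjusted p = 0.0601) at the low dose, which missed the threshold. High-dose array 1, at 2.67, lay above the other high-dose arrays, which read 2.06 to 2.09. The other anchor, Sdhd, fell by 0.69 ± 0.23 (SE, adjusted p = 0.0286) after the operation, a call lost without sham arrays 1, 3 or 4 or untreated arrays 1 or 2 (adjusted p = 0.0506 to 0.101). The flavoprotein Sdha and the iron-sulphur subunit Sdhb gave values of -0.53 ± 0.21 (SE, adjusted p = 0.0596) and -0.33 ± 0.21 (SE, adjusted p = 0.255), and neither was called. Without sham array 2 Sdha was called, at -0.64 ± 0.22 (SE, adjusted p = 0.0342).

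In complex III the core protein Uqcrc2 was called after the operation, at the low dose and with omeprazole. Its sham samples read 3.48, 3.21, 3.36 and 3.39 and its untreated samples 2.37, 2.92, 2.77 and 2.92. Low-dose samples read 3.42, 3.16 and 3.47, high-dose samples 3.33, 3.096, 2.89 and 2.84 and omeprazole samples 3.47, 3.19, 3.12 and 3.41. All untreated samples lay below the sham, low-dose and omeprazole samples, and high-dose samples overlapped them. The changes were -0.62 ± 0.15 (SE, adjusted p = 0.00642) after the operation, 0.61 ± 0.17 (SE, adjusted p = 0.00926) at the low dose, 0.30 ± 0.15 (SE, adjusted p = 0.216) at the high dose and 0.56 ± 0.15 (SE, adjusted p = 0.0137) with omeprazole. Uqcrb, a small subunit, was the other complex III member called after the operation, at -0.55 ± 0.19 (SE, adjusted p = 0.0384), and lost the call without sham arrays 1, 3 or 4 or untreated arrays 1 or 2 (adjusted p = 0.0653 to 0.123). The hinge subunit Uqcrh rose by 0.61 ± 0.20 (SE, adjusted p = 0.0232) at the low dose, a call lost without untreated array 1 or low-dose array 3 (adjusted p = 0.06 to 0.0662). Uqcrq, which was well above background on 17 of 20 arrays, rose by 0.97 ± 0.27 (SE, adjusted p = 0.0134) with omeprazole.

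Complex IV, cytochrome c oxidase, has subunits with alternative isoforms, which are given pair by pair. Cox4i2, the isoform of subunit IV known from lung and from low oxygen, was the only member higher after the operation. It read -1.94, -1.14, -1.34 and -0.70 in sham, 0.38, -0.09, -0.50 and -0.11 in untreated and -2.03, -1.79 and -1.20 in low-dose samples. High-dose samples read 0.03, -0.31, -0.05 and 0.23 and omeprazole samples -0.64, -0.84, -1.01 and -0.91. Untreated and high-dose samples were high and overlapped each other, sham and low-dose samples were low, and omeprazole samples lay below all untreated and high-dose samples. The change was 1.20 ± 0.25 (SE, adjusted p = 0.00193) after the operation, -1.60 ± 0.27 (SE, adjusted p = 0.00043) at the low dose, 0.06 ± 0.25 (SE, adjusted p = 0.907) at the high dose and -0.77 ± 0.25 (SE, adjusted p = 0.0279) with omeprazole, and high dose minus low dose was 1.65 ± 0.27 (SE, adjusted p = 0.000999). The call for the operation held in 22 of 22 alternative settings, and that for omeprazole was lost without untreated array 1 or omeprazole arrays 2, 3 or 4 (adjusted p = 0.0515 to 0.0909).

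The usual isoform Cox4i1 read 6.75, 6.10, 6.43 and 6.49 in sham and 6.0, 6.04, 6.02 and 6.35 in untreated samples, which overlap. Its change was -0.34 ± 0.16 (SE, adjusted p = 0.12), or -0.45 ± 0.16 (SE, adjusted p = 0.0431) without sham array 2, and 0.44 ± 0.18 (SE, adjusted p = 0.0566) at the low dose. For Cox4i2 minus Cox4i1 within a sample, the difference between groups was 1.54 for the operation, -2.04 for the low dose and -0.85 for omeprazole. In each of these the samples did not overlap, with p = 0.0286 by a two-sided exact permutation test, the smallest p these numbers allow, and 0.0514 after adjustment over 9 such tests, which misses the threshold.

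Cox8b, the muscle isoform of subunit VIII, moved the other way. Its sham samples read 6.94, 5.66, 6.26 and 6.03, untreated samples 4.41, 5.43, 5.01 and 5.75 and low-dose samples 5.98, 6.44 and 6.62. At the high dose it read 6.23, 5.36, 5.29 and 5.19 and with omeprazole 6.44, 5.35, 5.12 and 5.78. The change was -1.07 ± 0.35 (SE, adjusted p = 0.0256) after the operation, where the ranges overlap at 1 sample each, and 1.20 ± 0.38 (SE, adjusted p = 0.0196) at the low dose, where they do not. The call for the operation was lost in 5 of 22 alternative settings, among them those without sham arrays 1 or 3 or untreated arrays 1 or 3 (adjusted p = 0.0564 to 0.0947). The low-dose call was lost in 6 of 22, among them those without untreated array 1 or low-dose arrays 3 or 4 (adjusted p = 0.0599 to 0.0651). For its ubiquitous counterpart Cox8a the values were 0.08 ± 0.16 (SE, adjusted p = 0.716) and 0.02 ± 0.17 (SE, adjusted p = 0.942), neither called. Between groups Cox8b minus Cox8a differed by -1.16 for the operation and 1.18 for the low dose, each with an exact permutation p = 0.0286 and an adjusted p of 0.0514.

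The muscle isoform Cox6a2 varied more. It read 7.34, 6.46, 7.37 and 7.47 in sham and 5.43, 6.73, 7.35 and 6.98 in untreated samples, which overlap. The difference was -0.54 ± 0.36 (SE, adjusted p = 0.264), against 0.16 ± 0.13 (SE, adjusted p = 0.387) for the ubiquitous Cox6a1. For Cox6a2 minus Cox6a1 the value was -0.69 with an exact permutation p = 0.171. Cox7a2 fell by 0.66 ± 0.21 (SE, adjusted p = 0.0256), a call lost without sham arrays 1, 3 or 4 or untreated arrays 1 or 2 (adjusted p = 0.052 to 0.0895), and Cox6b2 gave 0.05 ± 0.19 (SE, adjusted p = 0.855). Cox6b1, Cox7a1 and Ndufa4l2 were not measured here. Ndufa4, a subunit found with complex IV, fell by 0.61 ± 0.19 (SE, adjusted p = 0.0212) after the operation and rose by 0.86 ± 0.21 (SE, adjusted p = 0.00383) at the low dose. Its call for the operation was lost without sham array 1 or untreated array 1 (adjusted p = 0.0688 to 0.0771). The complex IV members that fell after the operation were Cox6c, Cox7a2, Cox7b, Cox8b and Ndufa4, and those that rose at the low dose were Cox6c, Cox7b, Cox8b and Ndufa4.

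**Figure D3:**
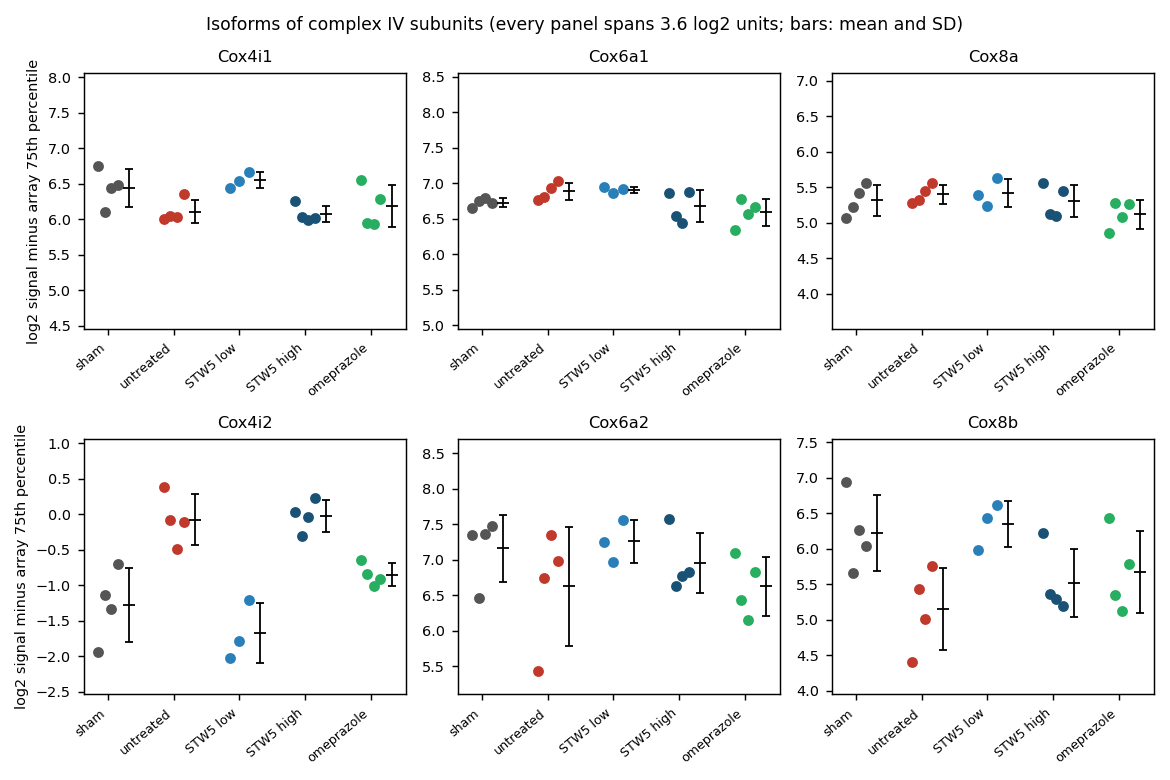
Level (log2 signal relative to the 75th percentile of the array) of Cox4i1, Cox4i2, Cox6a1, Cox6a2, Cox8a and Cox8b in each sample (points) by group, with the group's mean and SD beside the points and the same span of axis in every panel. Cox4i2 is high in the untreated and high-dose samples, Cox8b is low in most untreated samples, and Cox8a is nearly level.

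The bases before the start of the Cox8 pair are shown because Cox8b was called and Cox8a was not, and those of Ndufs1 and Atp5b are shown as further examples. They are from RefSeq on GRCr8, run 250 bases up to the start, read 5′ to 3′ on the gene's strand, and are at chr1:213833624-213833873 (minus) for Cox8a, chr1:205408274-205408523 (minus) for Cox8b, chr9:72073606-72073855 (minus) for Ndufs1 and chr7:1099808-1100057 (plus) for Atp5b. Capitals mark matches on either strand to 7 searched motifs: ETS (CCGGAAG), NRF1 core (TGCGCA), ERR (AAGGTCA), SP1 (GGGCGG), YY1 (ATGGCGG), CRE (TGACGT) and the CCAAT box (CCAAT).
Cox8a: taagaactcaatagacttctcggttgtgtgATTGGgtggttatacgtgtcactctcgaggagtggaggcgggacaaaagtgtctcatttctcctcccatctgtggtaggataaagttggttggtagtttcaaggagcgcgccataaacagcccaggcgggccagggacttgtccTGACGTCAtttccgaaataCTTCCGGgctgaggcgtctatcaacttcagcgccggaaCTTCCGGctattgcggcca
Cox8b: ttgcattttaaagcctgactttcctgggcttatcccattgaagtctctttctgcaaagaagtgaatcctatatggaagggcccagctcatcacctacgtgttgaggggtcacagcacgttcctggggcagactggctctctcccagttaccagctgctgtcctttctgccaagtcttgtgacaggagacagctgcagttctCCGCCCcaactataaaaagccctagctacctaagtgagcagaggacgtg
Ndufs1: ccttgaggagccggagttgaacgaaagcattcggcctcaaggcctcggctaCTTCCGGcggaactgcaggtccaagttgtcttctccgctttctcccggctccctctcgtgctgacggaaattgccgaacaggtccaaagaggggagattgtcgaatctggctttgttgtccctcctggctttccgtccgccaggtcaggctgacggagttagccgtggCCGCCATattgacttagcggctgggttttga
Atp5b: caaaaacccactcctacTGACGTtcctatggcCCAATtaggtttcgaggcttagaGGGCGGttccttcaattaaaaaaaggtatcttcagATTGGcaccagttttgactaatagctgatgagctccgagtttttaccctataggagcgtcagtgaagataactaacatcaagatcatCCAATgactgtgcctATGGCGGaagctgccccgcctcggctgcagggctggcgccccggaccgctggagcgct
Cox8a carried an ETS match 57 and 19 bases before the start, a CRE match on each strand that overlap each other, and a CCAAT box, while Cox8b carried 1 SP1 match, 49 bases before the start. Ndufs1 had an ETS match at 199 and a YY1 match at 31 bases before the start. Over the 74 members with a listed promoter, 21 held an ETS match and 18 an NRF1 core match, against 7.74% and 6.57% of 27457 genes. YY1 and ERR letters stood in 7 members each, against 2.54% and 3.77% of all genes, and CRE letters in 6, against 7.25%. SP1 letters stood in 27 members and CCAAT in 21, against 32.4% and 34.3% of all genes. The members' promoters also differed in base content, with a median GC of 56.8% against 52% over all genes. Among the 38 members that fell after the operation and have a promoter, 10 held ETS letters, 7 NRF1 core letters and 5 ERR letters. Among the 36 others these numbers were 11, 11 and 2.

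In complex V the catalytic beta subunit Atp5b read 2.56, 1.91, 1.90 and 1.44 in sham, 1.65, 1.58, 1.89 and 1.06 in untreated and 1.99, 2.18 and 1.56 in low-dose samples. It read 1.31, 2.08, 2.18 and 0.65 at the high dose and 2.84, 1.84, 2.75 and 2.45 with omeprazole. Only the omeprazole change, 0.93 ± 0.33 (SE, adjusted p = 0.0441), was called, and its samples overlap those of untreated rats at 1.84 and 1.89. This call was lost without untreated arrays 1, 2 or 4 or omeprazole arrays 1, 3 or 4 (adjusted p = 0.0625 to 0.121). Atp5j, a subunit of the peripheral stalk, read 4.64, 4.11, 4.44 and 4.57 in sham, 3.54, 3.91, 4.03 and 4.09 in untreated and 4.41, 4.44 and 4.66 in low-dose samples. No untreated sample reached a sham or low-dose sample, with changes of -0.54 ± 0.18 (SE, adjusted p = 0.0267) and 0.61 ± 0.19 (SE, adjusted p = 0.0201). The first call was lost without sham arrays 1, 3 or 4 or untreated array 1 (adjusted p = 0.0577 to 0.0926), and the low-dose call without untreated array 1 or low-dose array 4 (adjusted p = 0.0632 to 0.0693). The gamma subunit of the rotating stalk, Atp5c1, fell by 0.53 ± 0.18 (SE, adjusted p = 0.0362) after the operation and rose by 0.58 ± 0.18 (SE, adjusted p = 0.0281) with omeprazole, and both calls were lost without single arrays, the first without sham arrays 1, 3 or 4 or untreated arrays 1, 2 or 4 (adjusted p = 0.0588 to 0.107) and that for omeprazole without untreated arrays 1 or 4 or omeprazole arrays 1 or 4 (adjusted p = 0.0515 to 0.0951). The 3 genes for the proton-carrying c ring, Atp5g1, Atp5g2 and Atp5g3, gave differences of -0.37, -0.27 and -0.19 after the operation, and none was called. All members of complex V called after the operation were Atp5a1, Atp5c1, Atp5d, Atp5e, Atp5i, Atp5j and Atp5l, with changes between -0.43 and -0.62, and those called at the low dose were Atp5d, Atp5e, Atp5h, Atp5i, Atp5j, Atp5j2 and Atp5o, with changes between 0.40 and 0.68. Of 22 alternative settings the call for the operation held in 10 for Atp5a1, 10 for Atp5d, 16 for Atp5e and 16 for Atp5i. The low-dose call held in 9 for Atp5j2, 10 for Atp5d, 11 for Atp5h and 16 for Atp5i. Such numbers are not given here for Atp5l and Atp5o.

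Among the non-subunits Atp5s had the largest fall after the operation. It read -0.80, -1.21, -1.14 and -1.95 in sham, -2.23, -2.60, -2.79 and -2.29 in untreated and -1.76, -1.51 and -1.55 in low-dose samples. High-dose samples read -1.33, -1.39, -1.71 and -1.83 and omeprazole samples -1.71, -1.18, -1.08 and -1.31. Untreated samples were below all others. The changes were -1.20 ± 0.22 (SE, adjusted p = 0.00092) after the operation and then 0.87 ± 0.24 (SE, adjusted p = 0.00902), 0.91 ± 0.22 (SE, adjusted p = 0.0179) and 1.16 ± 0.22 (SE, adjusted p = 0.00146) for low dose, high dose and omeprazole. The high-dose call was lost without untreated array 3 or high-dose arrays 1 or 2 (adjusted p = 0.0543 to 0.0708). The complex I assembly factor Ndufaf3 fell by 0.61 ± 0.21 (SE, adjusted p = 0.0365), a call lost without sham arrays 1, 3 or 4 or untreated arrays 1, 2 or 3 (adjusted p = 0.053 to 0.117), and the supercomplex factor Cox7a2l gave -0.07 ± 0.13 (SE, adjusted p = 0.729).

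Of the 13 subunits encoded in mitochondrial DNA, 12 had a probe. After the operation 0 of these 12 were called by limma, with 2 at an unadjusted p under 0.05, and their median difference was -0.29. The complex I subunit Mt-nd5 gave -0.57 ± 0.26 (SE, adjusted p = 0.0973). At the low dose the median over the 12 was 0.51, against 0.17 over all genes, and 33.3% rose, against 21.7% of all genes. The 4 that rose were Mt-nd5 by 0.90 ± 0.28 (SE, adjusted p = 0.0172), the complex III cytochrome b gene Mt-cyb by 0.51 ± 0.17 (SE, adjusted p = 0.0249), and the complex IV core subunits Mt-co1 by 0.60 ± 0.22 (SE, adjusted p = 0.0432) and Mt-co3 by 0.57 ± 0.19 (SE, adjusted p = 0.0289). Per sample the median level of the nuclear subunits minus that of the 12 mitochondrial ones, each gene centred on its own mean, ranged from 0.01 to 0.24 in sham and from -0.20 to 0.12 in untreated samples. These ranges overlap, so a different shift of the nuclear and the mitochondrial sets was not resolved at this number of samples.

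The second comparison, low-dose STW5 against untreated oesophagitis, lies within 1 slide and shares its untreated samples with the first. Of the 86 members 34 were higher and 1, Cox4i2, was lower. Over all genes 37.6% were called, 21.7% higher and 15.9% lower. The members' median change was 0.49 against 0.17 over all genes, and 83 changes were positive. In 50 members every low-dose sample lay above every untreated sample, and over all genes 22.1% did so. In 2 members they all lay below, against 15.3% of all genes. By complex, 18 of 36 members of complex I rose, 0 of 4 of complex II, 2 of 7 of complex III, 4 of 14 of complex IV and 7 of 15 of complex V, and 3 of 10 non-subunits. The 4 changes of complex II were positive with a median of 0.44, and its 2 members with an unadjusted p under 0.05 missed the adjusted threshold in limma. Complex V members called here include the central stalk subunit Atp5e, at 0.68 ± 0.22 (SE, adjusted p = 0.0211), lost without untreated array 1 or low-dose array 4 (adjusted p = 0.0626 to 0.0637).

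Single arrays again moved the count, which was 16 without untreated array 1, against 31.2% of all genes, and which also fell without low-dose array 4. In the fit of these 2 groups alone, within their slide, it was 14, against 20.6% of all genes. In this fit, without untreated array 1 and with quantile normalization, the share of members called was below that of all genes. Upward alone, 13 were called in the fit of these 2 groups, against 10.5% of all genes, and 15 without untreated array 1, against 17.5%. Under the value table's assignment of doses these 35 members belong to the high dose, and 8 are called for the low dose. Markers moved here as well. All 16 macrophage markers fell, to a summed level of 4.66 to 6.46 in low-dose samples, 17 of 23 squamous markers rose and 10 of 24 skeletal muscle markers rose, to a summed level of 11.01 to 11.40. Their part in the members' rise was not tested.

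Low-dose samples were then set against sham samples. Of the 86 members 0 were called by limma, against 0.00734% of all genes, and 1 had an unadjusted p under 0.05. With array weights 2 were called, against 19% of all genes, and with the value table's doses 6, against 8.56%. The median change was 0.04 against 0.07 over all genes, and the members' changes ran from -0.39 to 0.38 with a median SE of 0.20. None of these differences was resolved at this number of samples. Cox4i2 was the furthest from sham in complex IV by p, at -0.39 ± 0.27 (SE, adjusted p = 0.697). The samples of 2 members did not overlap, both with the low dose higher, and over all genes 4% were apart in this direction and 1.55% in the other.

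High-dose STW5 and omeprazole were each compared with the same untreated samples, on another slide. At the high dose 7 members were higher and 1 lower, with 9.5% of all genes called, 5.14% higher and 4.35% lower. The samples were apart upward in 13 members and downward in 1, against 9.67% and 7.95% of all genes. The median change was 0.21 against -0.01 over all genes. The members higher included Ndufc1 and Ndufs5 of complex I, Sdhc, Cox7c, Atp5s and Ndufb4l1. Of these, Cox7c met the rule on background only through slide 3, where it is high, so its place in the count is a description. The one lower was Cox4nb, a gene of the endoplasmic reticulum membrane complex, at -0.62 ± 0.14 (SE, adjusted p = 0.0133), and that call was lost without high-dose array 1 (adjusted p = 0.0594). Without high-dose array 1 the number called was 4, a count that alone does not show whether members moved more than other genes. The median level of all members on that array was 0.29 above the members' mean, against -0.19 to -0.12 on the other 3 high-dose arrays.

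With omeprazole 15 members were higher and 1, Cox4i2, was lower, against 27.8% of all genes called, 15.6% higher and 12.2% lower, so the share of members called was below that of all genes. The samples were apart upward in 19 members and downward in 2, against 15.5% and 12.6% of all genes. The median change was 0.28 against 0.10 over all genes. Complex I gave 7 of the 15, including Ndufa7, Ndufa9, Ndufb2, Ndufc1, Ndufs1 and Ndufs5. The others were Sdhc, Uqcrc2, Uqcrq, Cox7c, Atp5b, Atp5c1, Atp5s and Ndufb4l1. Here too Cox7c is counted although it met the rule on background only through slide 3. The number called was 10 without untreated array 1, and here too the count alone does not show whether members moved more than other genes. Macrophage markers summed to 7.13 to 7.90 at the high dose and to 5.84 to 6.66 with omeprazole, against 7.84 to 8.78 in untreated samples. With omeprazole 13 of 23 squamous, 7 of 24 skeletal muscle and 3 of 10 smooth muscle markers were higher, 2 skeletal muscle markers were lower, and 16 of 16 macrophage and 7 of 12 neutrophil markers were lower. At the high dose 3 skeletal muscle markers and 1 squamous marker were higher and 4 macrophage markers lower. Their part in the members' changes was not tested.

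The 2 STW5 doses differed in 9 members, 3 higher and 6 lower at the high dose, with 23.9% of all genes called, 10.7% higher and 13.2% lower. The samples were apart with the high dose higher in 3 members and lower in 18, against 15.2% and 20.9% of all genes. The lower ones were Ndufa3, Ndufa7, Ndufa8 and Ndufb7 of complex I, Uqcrh and the central stalk subunit Atp5d. Uqcrh read 5.67, 5.74 and 5.70 at the low and 5.13, 5.19, 5.12 and 4.55 at the high dose, a difference of -0.70 ± 0.20 (SE, adjusted p = 0.0186). Ndufb7 differed by -0.69 ± 0.19 (SE, adjusted p = 0.0178) and Atp5d by -0.57 ± 0.17 (SE, adjusted p = 0.0242). The calls were lost for Uqcrh without low-dose array 3 or high-dose array 4 (adjusted p = 0.0581 to 0.0653), for Ndufb7 without low-dose array 3 or high-dose array 4 (adjusted p = 0.0562 to 0.0834) and for Atp5d without low-dose array 3 or high-dose arrays 3 or 4 (adjusted p = 0.0544 to 0.0686). The higher ones were Cox4i2, Cox7c and Ndufb4l1, of which Cox7c met the rule on background only through slide 3. The members' median difference was -0.29 against -0.15 over all genes. With quantile normalization it was -0.03 against -0.10 over all genes, and the calls were 3 higher and 1 lower. The size of the difference, and whether the members' median lay below or above that of all genes, thus depend on the scaling. In the same comparison 14 of 16 macrophage and 8 of 11 endothelium and fibroblast markers were higher at the high dose and 13 of 23 squamous markers lower, and their part was not tested. The direction of each dose difference also turns under the value table's assignment of doses.

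High dose and omeprazole lie on the same slide. None of the 86 members was called between them by limma, against 0.22% of all genes (0.191% higher and 0.0294% lower), with 6 at an unadjusted p under 0.05. In the fit of these 2 groups alone 1 was called, against 8.64% of all genes. It was 3 with array weights, against 16.5%, and 3 with the value table's doses, against 2.41%. For Cox4i2 the difference was 0.83 ± 0.25 (SE, adjusted p = 0.153) with no overlap of samples, and it was the 1 member apart with the high dose higher, against 7.96% of all genes. In 2 members the high dose lay wholly lower, against 10.7% of all genes. The median difference was -0.06 against -0.07 over all genes.

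On slide 3 a few probes stood apart from all other arrays. All 8 high-dose and omeprazole arrays lay above all other samples for 3 of the members' probes and for 2 of 86 members, against 1.26% of all probes and 1.2% of all genes. Among them Cox7c met the rule on background only through these arrays. No member probe lay below, against 0.0991% of all probes and 0.0954% of all genes. The next probe, that of Sdhc, overlapped the other samples by 0.14. Ndufb4l1 read -1.25, -1.96, -1.42 and -1.15 in sham, -2.08, -2.05, -1.92 and -1.76 in untreated and -1.57, -1.71 and -1.34 in low-dose samples. At the high dose it read 1.25, 1.02, 1.00 and 0.82 and with omeprazole 1.49, 0.83, 0.94 and 1.31, so the gap between slide 3 and the rest was 1.97. Its change from untreated was 2.97 ± 0.19 (SE, adjusted p = 2.64e-08) at the high dose and 3.097 ± 0.19 (SE, adjusted p = 1.4e-08) with omeprazole. Ndufb4 itself, the complex I subunit it resembles by name, gave differences of 0.30 and 0.23 at the high dose on its 2 probes, and neither was called.

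Cox7c, a small subunit of complex IV, was well above background on 10 of 20 arrays. Only 1 sham, 1 untreated and no low-dose array was well above background, against all 8 of slide 3. Sham samples read -5.32, -5.56, -6.74 and -5.15 and untreated samples -5.49, -5.77, -5.91 and -6.56. High-dose samples read -2.12, -2.82, -2.83 and -2.73 and omeprazole samples -2.68, -2.19, -3.04 and -2.64. As 3 of 4 untreated arrays were not above background, the difference of 3.31 at the high dose and 3.29 with omeprazole against untreated is a description, although both were called. The probe met the rule through slide 3, where it is high. At the low dose, where no array was well above background, the measured mean was -5.49, against -2.63 at the high dose. Each low-dose signal below the lowest signal well above background on its array was also raised to that signal. The low-dose mean was then -5.13, and the high dose was 5.66-fold higher. This too is a description, as the probe met the rule through slide 3, and slide and dose cannot be told apart. Next below Cox7c in the number of arrays well above background came the genes left out by the rule: Ndufaf2, well above background on 1 array, and Cox8c, on none.

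The third such probe is the dimmer of the pair for Atp5g3. It changed by 2.01 at the high dose and 2.14 with omeprazole against untreated and was called in both, while the values of the brighter probe were -0.02 and 0.03. The starts of the Atp5g3 pair are shown because both carry the same gene name and read differently, and that of the Ndufb4l1 probe because its gap is the widest. Each line gives the first 30 of 60 bases 5′ to 3′ as deposited, and capitals mark the 9 bases that the shown starts of the Atp5g3 pair share.
Ndufb4l1 probe: agacagggacaggaaggaaagacttatcca
Atp5g3 dimmer probe: gtgtgtctcagctaatccaAAGGGAGTTtc
Atp5g3 brighter probe: tgatccgAAGGGAGTTccagaccagtgtaa
On rn4, by the array files, the Ndufb4l1 probe lies at chr14:7547999-7548058 (plus) and the brighter Atp5g3 probe at chr3:56512525-56512584 (minus). The longest run that the whole Atp5g3 probes share is 12 bases. The GC content was 41.7% for the Ndufb4l1 probe and 45% for each Atp5g3 probe, and the median over member probes was 45%. Whether these probes read the slide or the treatment cannot be told apart. For Ndufaf4, an assembly factor of complex I, a second probe read 1.75 higher than in untreated rats at the high dose and 1.25 higher with omeprazole, while the probe that stands for the gene gave 0.04 and -0.07. That second probe was well above background on 7 arrays, 6 of them on slide 3, so its differences are a description.

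**Figure D4:**
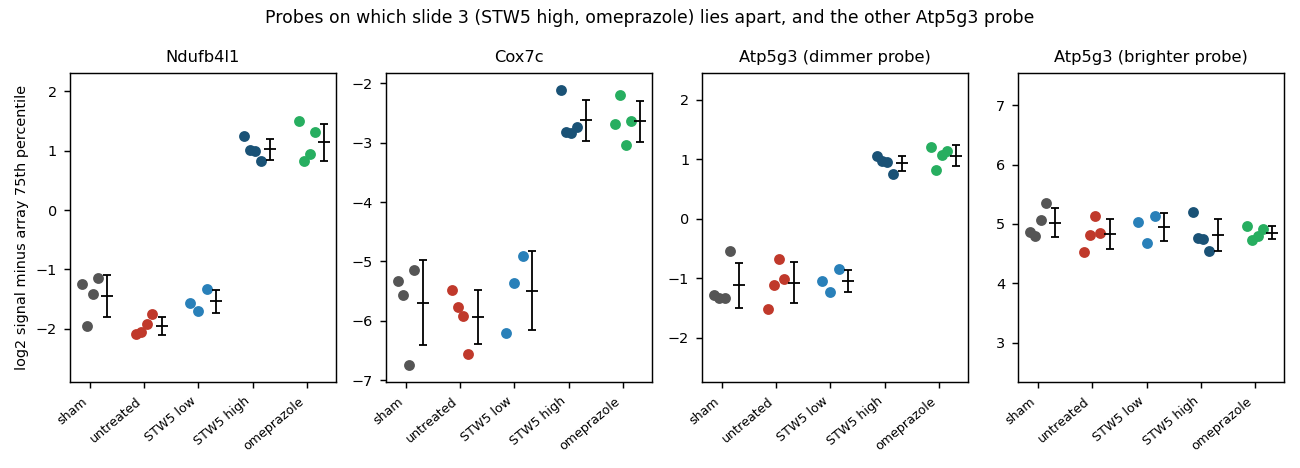
Level (log2 signal relative to the 75th percentile of the array) of the 3 member probes apart on slide 3 and of the brighter Atp5g3 probe in each sample, by group, with mean and SD beside the points. High-dose and omeprazole samples lie above all other samples in the first 3 panels and overlap them in the panel of the brighter Atp5g3 probe.

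Pathway genes outside the naming rule were counted from lists compiled with earlier results of these data known. Over all genes 17.9% were lower and 14.9% higher after the operation, and 21.7% were higher and 15.9% lower at the low dose. After the operation 9 of 17 other nuclear respiratory chain genes were lower and 1 higher, and at the low dose 12 were higher and 1 lower. Etfdh, which passes electrons from fatty acid oxidation to ubiquinone, changed by -0.78 ± 0.17 (SE, adjusted p = 0.00245) and then 0.97 ± 0.18 (SE, adjusted p = 0.000739). Coq3 and Coq5, methyltransferases of ubiquinone synthesis, changed by -0.81 ± 0.19 (SE, adjusted p = 0.00461) and -0.49 ± 0.11 (SE, adjusted p = 0.00287) after the operation. Of 24 assembly factors 9 were lower after the operation and 9 higher at the low dose. Among them the complex III factor Lyrm7 changed by -1.11 ± 0.23 (SE, adjusted p = 0.00185) and 1.31 ± 0.24 (SE, adjusted p = 0.000776), and the complex I factor Ecsit by -0.78 ± 0.20 (SE, adjusted p = 0.00818) and 0.83 ± 0.22 (SE, adjusted p = 0.00743).

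Of 20 fatty acid oxidation genes 11 were lower after the operation and 15 higher at the low dose. Acsl1, which activates long-chain fatty acids, changed by -1.31 ± 0.26 (SE, adjusted p = 0.00165) and 1.28 ± 0.28 (SE, adjusted p = 0.00229), and Cpt2, which hands them over inside the mitochondrion, by -0.86 ± 0.18 (SE, adjusted p = 0.0022) and 1.14 ± 0.19 (SE, adjusted p = 0.000458). Of 24 genes of the citric acid cycle and pyruvate dehydrogenase 7 were lower and 1 higher after the operation, and 5 higher and 1 lower at the low dose. The pyruvate dehydrogenase subunit Pdhb changed by -0.65 ± 0.17 (SE, adjusted p = 0.00858) and 0.64 ± 0.18 (SE, adjusted p = 0.0119). Carriers and creatine kinases were lower in 9 of 18 and higher in 1, and at the low dose higher in 9. The low-dose share of the cycle genes, 20.8%, was near that of all genes. Mitochondrial ribosome genes were also near it, with 9 of 46 (19.6%) lower after the operation and 11 (23.9%) higher at the low dose.

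Regulators of mitochondrial biogenesis were lower in 5 of 19 and higher in 1 after the operation, and higher in 3 (15.8%) at the low dose. The coactivator Ppargc1b changed by -1.39 ± 0.26 (SE, adjusted p = 0.00109) and 1.02 ± 0.28 (SE, adjusted p = 0.00948), and Perm1, a muscle regulator of oxidative genes, by -2.12 ± 0.55 (SE, adjusted p = 0.00802) after the operation, with 1.43 ± 0.59 (SE, adjusted p = 0.0675) at the low dose, which missed the threshold. The transcription factor Nrf1 was the one that rose after the operation, at 0.59 ± 0.14 (SE, adjusted p = 0.00433), and its low-dose value was -0.34 ± 0.15 (SE, adjusted p = 0.0823). Glycolysis genes were mixed, 7 of 22 lower and 2 higher after the operation, then 5 (22.7%) higher and 2 lower at the low dose. The muscle phosphofructokinase Pfkm changed by -1.60 ± 0.37 (SE, adjusted p = 0.00432) and 1.08 ± 0.40 (SE, adjusted p = 0.0438), and the lactate exporter Slc16a3 by 1.95 ± 0.42 (SE, adjusted p = 0.00268) and -2.47 ± 0.46 (SE, adjusted p = 0.000738).

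**Figure D5:**
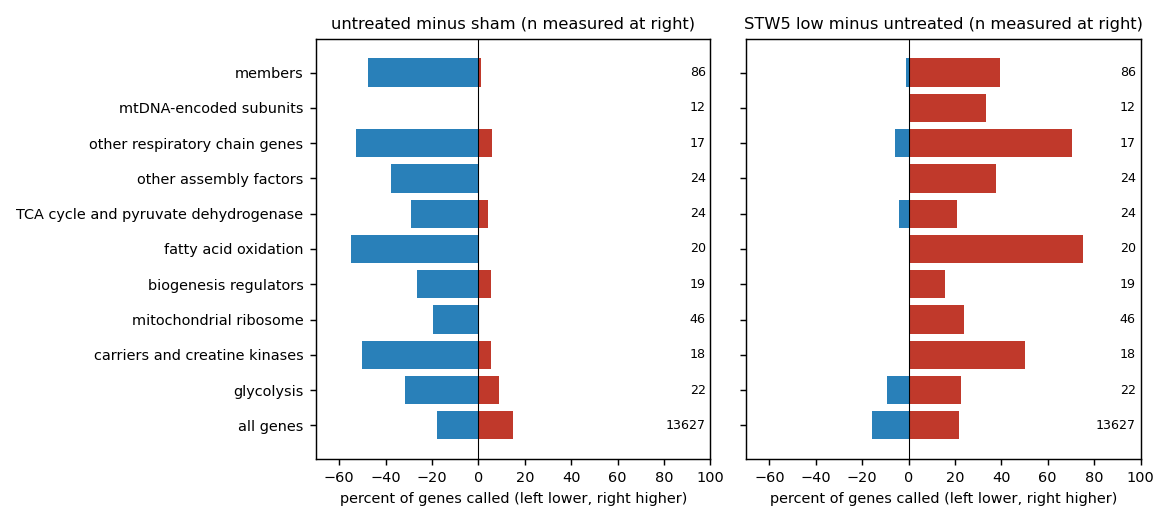
Share of the members, of each pathway list and of all genes that was called higher (right) or lower (left) for untreated against sham and for low dose against untreated, in percent, with the number measured at the right. Of the 9 pathway lists 8 have more genes lower than higher after the operation, and all 9 have more higher than lower at the low dose.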

How the data were processed

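One-colour (Cy3) Agilent rat arrays were used. Per the file headers, the deposited signal of a feature is an intensity that Agilent Feature Extraction 10.7.3.1 had background-subtracted and detrended, with no scaling between arrays. The authors' series matrix gives, in each column, the ratio of a signal to that array's median, as its columns show when set against the scanner files, and served as an alternative. Probe coordinates are rn4, per the file headers.

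Log2 intensities of the 58717 non-control features, less outlier spots, were averaged to 30367 probes and the array's 75th percentile was subtracted. Probes entered the fit where 50% or more of the spots passed the scanner's flag for signal well above background on 4 or more arrays. Probes were matched to GRCr8 genes by accession (18367), symbol (2491), synonym (529), mitochondrial description (12) or array name alone (1833). Each gene took its brightest probe, and 17 members had several kept probes. Low-dose arrays 1 and 2 were averaged. Near-identical arrays were defined by a ratio under 1.5, over 4797 bright probes and 190 pairs of arrays.

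All 5 groups were fitted with lmFit and eBayes of limma (version 3.58.1, under R 4.3.3; files were read with data.table, version 1.17.8), with Benjamini-Hochberg adjustment over 13627 genes and a threshold of 0.05. Calculations were tested on simulated data. Precision is limited by the number of arrays. Replicate numbers were not taken to pair the samples, and a pairing was neither shown nor excluded. Same-numbered pairs had a median correlation of 0.082, from -0.32 to 0.58, with 17 of 36 over 0.1. Pairs of different number had a median of -0.009, from -0.53 to 0.64, with 32 of 108 over 0.1. Alternatives covered scaling, background, filter, probe choice, array weights, a replicate block, groups in the fit and arrays left out. Members named are those of the smallest p per complex and comparison (up to 2), fixed isoform sets, members apart on slide 3 or with disagreeing probes, and up to 3 genes per pathway list. Others named were chosen after their values were seen. The members and all lists were chosen with earlier results of these data known. Some items that meet these rules are not reported here.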

Additional observations from a re-analysis of the deposited data

Results flagged for a closer look

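Levels of the 23 members described most closely, and the sample medians, were searched for arrays far from the rest of their group of 4, by Dixon's test at a critical value of 0.829. It marked 13 of 116 groups, and chance marks about 5%. High-dose array 1 was marked most often. It was high for Sdhc (2.67, others 2.06 to 2.09), Cox4i1 (6.25, others 5.99 to 6.03), Cox7c (-2.12, others -2.83 to -2.73) and Cox8b (6.23, others 5.19 to 5.36). The median of all members on it was 0.288, against -0.192 to -0.116 on the other high-dose arrays. High-dose array 4 was low for Uqcrh, at 4.55 against 5.12 to 5.19.

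Omeprazole array 3 was high for Ndufa7 (-1.84, others -1.96 to -1.94) and Cox4nb (0.417, others 0.0316 to 0.0578) and low for Ndufa4 (5.57, others 5.84 to 5.85). Omeprazole array 1 was high for Uqcrq, at -3.73 against -4.22 to -4.14. Untreated array 4 was high for Cox4i1, at 6.35 against a highest value of 6.04 in the others. Untreated array 1 was low for the median of the complex III members, at -0.481 against -0.231 to -0.180. Sham array 2 was low for Cox6a2, at 6.46 against 7.34 to 7.47.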

How the results depend on the processing

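Each count of called members was recomputed under every alternative, and where it moved by over 1.5 times the cause was not tested unless the setting itself leaves out samples or genes. The share of all genes called also moved between settings. A count with no such share beside it does not show whether members moved more than other genes. The counts in this order are for untreated against sham (42), low dose (35), high dose (8) and omeprazole (16) against untreated, low dose against sham (0), high against low dose (9) and high dose against omeprazole (0). Quantile normalization gave 27 for the operation, 14 for the low dose and 4 between doses, against 33.2%, 35.6% and 22.4% of all genes. Fitting only the groups compared gave 5, 14 and 3 for the operation, low and high dose and 1 for high dose against omeprazole. Median scaling gave 9 for omeprazole and 17 between doses, normexp background 17 between doses, and all 20 arrays as separate samples 18 between doses and 51 for the low dose. The percentile over probes above background on all arrays gave 22 for the low dose. Array weights gave 37 between doses (46.6% of all genes), 2 for low dose against sham and 3 for high dose against omeprazole. Between doses, the split of calls was 3 higher and 6 lower, with quantile normalization 3 and 1, with median scaling 3 and 14. The median change of all genes at the low dose was 0.17, and 0.04 and 0.27 under the other percentile and median scaling, which shift every gene alike. The members' median lay 0.32 above it, and 0.16 with quantile normalization, 0.23 with normexp background and 0.22 with array weights. Added after seeing the data, leaving out low-dose arrays 1 and 2 together gave 19 for the low dose and 4 between doses, and scaling by all probes but the members gave 35 for the operation and 25 for the low dose.

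Leaving out single arrays gave 9 to 61 for the operation, 16 to 45 for the low dose, 4 to 8 for the high dose, 10 to 18 for omeprazole, 4 to 14 between doses, and 0 to 0 for low dose against sham and for high dose against omeprazole. For the operation it was 11, 18 and 17 without sham arrays 1, 3 and 4, and between doses 5 without low-dose array 3, 14 without high-dose array 1 and 4 without high-dose array 4. With the replicate block the counts were 41, 27, 9, 17, 0, 8 and 0, and the numbers were not shown to pair samples. The count apart on slide 3 was 1 when probes had to be above background on all 20 arrays and 0 with the value table.

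The value table trades the STW5 doses by construction: 8 members were called for the low dose, 35 for the high dose, 6 for low dose against sham and 3 for high dose against omeprazole. High minus low dose then turned to 0.57 for Atp5d, -1.65 for Cox4i2, -2.87 for Cox7c, 0.78 for Ndufa7, -2.56 for Ndufb4l1, 0.69 for Ndufb7 and 0.70 for Uqcrh. High dose minus untreated turned to 0.45 for Atp5d, -1.60 for Cox4i2, 0.69 for Ndufb7 and 0.61 for Uqcrh. Low dose minus untreated turned to -0.11 for Atp5d, 0.055 for Cox4i2, -0.0013 for Ndufb7 and -0.096 for Uqcrh. Low dose minus sham turned to -0.54 for Atp5d, 1.26 for Cox4i2 and 2.47 for Ndufb4l1, and high dose minus omeprazole to -2.86 for Cox7c. The mean over probes turned Atp5g3 to 1.00 for high dose minus untreated and 0.92 between doses. Of the values of single named members under all alternatives, 6513 kept their direction and side of the threshold, 271 fell short of it, 111 newly passed it and 21 turned.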
